A study of Mus musculus with 8 samples.

Results

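The genes described here are 10 transcription factors of sensory neuron lineage and subtype: Isl1, Pou4f1, Pou4f2, Runx1, Runx3, Etv1, Shox2, Maf, Tlx3 and Prdm12. They were chosen by symbol, and all 10 were found among the 22609 gene symbols of the count tables. RNA was sequenced from neurons of the dorsal root ganglia (DRG) of mice, where the cell bodies of sensory nerves lie beside the spinal cord, in 4 libraries from females and 4 from males. All mice were naive adult C57BL/6J animals, all females were in the estrous phase of the cycle, and both sexes received the fluorescent lectin WGA-Alexa Fluor 488 in the hindpaw skin and the thigh muscle. Lumbar ganglia were taken 2 days later and dissociated, and the labelled neurons were sorted by their fluorescence, so that the libraries represent skin and muscle afferents of many kinds in an unknown mixture. The libraries were made from oligo-dT primed, PCR amplified cDNA by the SMART-seq2 protocol. By the study's methods, each sample held the lumbar ganglia of both body sides and each sex had 4 samples, and the labels do not name the mice, so p-values measure the spread between these libraries.

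Sensory neurons of the DRG acquire their identity in steps. Isl1, a LIM-homeodomain protein, and Pou4f1, a POU-homeodomain protein also called Brn3a, act in nearly every sensory neuron and end the programme of the neural progenitor. Other factors then split the lineage. Prdm12 is required for nociceptors to form, Runx1 directs nociceptors that respond to the growth factor GDNF through the receptor Ret, and Runx3 and the ETS factor Etv1 act in proprioceptors, the muscle afferents that sense stretch. Shox2 and Maf act in low-threshold touch neurons, and Tlx3 is a homeobox factor that acts with Runx1 in nociceptor subtypes. Pou4f2, or Brn3b, is best known from the ganglion cells of the retina. Much of this work is done in the embryo, and the libraries show what remained in the adult.

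Depth was 4.80 to 7.33 M reads assigned to genes per library (M, 1e6 reads), so that 3 reads, taken as the floor of detection, correspond to 0.409 to 0.625 counts per 1e6 gene reads (CPM). Each library held reads of 15145 to 15489 genes. Female replicate 4 stood apart from the rest: its chi-square per degree of freedom against the other female libraries was 32.3 to 48.0, and no other pair of libraries of a sex exceeded 12.8. Over 12374 genes, Spearman's rho between its deviation from the median library and the length of the exons was -0.53, against 0.01 to 0.23 in the other libraries, and rho with the GC content of the exons was 0.35. Female replicate 3 had a rho of 0.26 with GC content and 0.02 with length. For GC content, rho ran from -0.05 to 0.35 over the females and from -0.18 to -0.12 over the males, with no overlap.

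Pou4f1 and Pou4f2 are shown as sequence because, among the related genes compared, they were the only pair to share windows of 50 bases, the length of a read, without a mismatch. Of the 2552 windows of 50 bases in the Pou4f1 transcripts, 23 occurred without a mismatch in Pou4f2 and 66 (2.59%) occurred with at most 2 mismatches. Reads from the identical windows cannot be placed by sequence alone. Over 90 coding bases of the POU-specific region, 86 bases (95.6%) were identical, with an unbroken run of 60. The stretch lies in exon 2 of 3 of Pou4f1 (mm9, chr14:104865282-104865371, minus strand) and in exon 2 of 2 of Pou4f2 (mm9, chr8:80958972-80959061, minus strand), and capitals mark the bases that differ.
Pou4f1: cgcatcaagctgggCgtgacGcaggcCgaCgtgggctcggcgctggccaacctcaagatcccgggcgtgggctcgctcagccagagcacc
Pou4f2: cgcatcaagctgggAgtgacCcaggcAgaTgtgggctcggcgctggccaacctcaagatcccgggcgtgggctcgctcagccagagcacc
For Runx1 against Runx3, Isl1 against Isl2, Etv1 against Etv4 or Etv5, Maf against Mafa and Tlx3 against Tlx1 or Tlx2, no window of 50 bases came within 2 mismatches. For Pou4f1 against Pou4f3 there were 4 such windows and for Runx3 against Runx2 there were 2, none of them identical. Reads that align more than once were not counted for any gene, and how many Pou4f reads were lost this way was not tested, so the level of Pou4f2, with 24 to 53 reads per library, is the less certain of the pair.

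Levels of different genes were compared per length, as reads per kilobase of exon per 1e6 gene reads (RPKM), with exon lengths of the GENCODE M1 annotation. By the median of the 8 libraries, Prdm12 came highest with 93.2 RPKM, followed by Pou4f1 with 84.9 and Isl1 with 61.5 RPKM. These exceeded the median RPKM of 96.7%, 96.4% and 94.8% of the 21627 genes with a length. Runx1 followed with 11.3 RPKM, Etv1 with 9.85 and Tlx3 with 4.62. The last 4 were Pou4f2 with 1.99, Shox2 with 1.73, Maf with 1.17 and Runx3 with 0.997 RPKM, which placed Runx3 above 48.6% of all genes.

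The genes thus fell in a high group of 3 pan-sensory or nociceptor lineage factors and a long tail of subtype factors. The ranges of 8 of the 9 neighbouring pairs in this order overlapped, and the exception was the step from Isl1 (52.8 to 72.4 RPKM) to Runx1 (4.30 to 14.4 RPKM). Prdm12 exceeded Pou4f1 in 4 of 8 libraries, so these neighbours had no stable order. Pou4f1 exceeded Isl1 in 8 of 8 libraries, Etv1 exceeded Tlx3 in 8, and Tlx3 exceeded Pou4f2 in 8. Without female replicate 4 the order of the medians was the same, with 7 overlapping pairs.

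**Figure D1:**
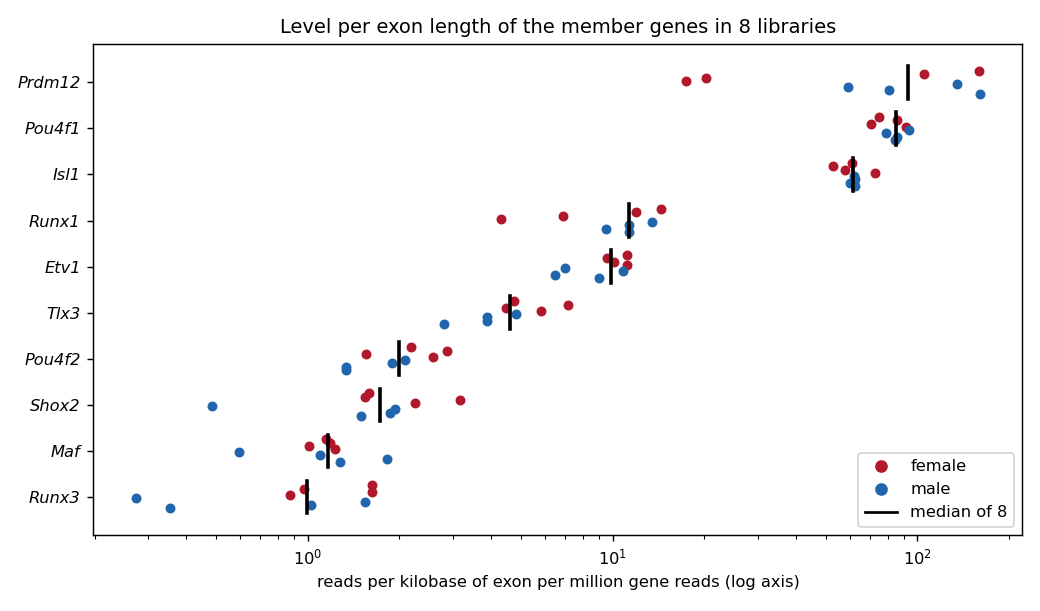
Level per exon length of the 10 genes in reads per kilobase of exon per 1e6 gene reads, on a log axis, with a point for each of 4 female (red) and 4 male (blue) libraries and a bar at the median of 8. Prdm12, Pou4f1 and Isl1 have medians of 93.2, 84.9 and 61.5 RPKM, Runx3 has 0.997, and 2 female libraries of Prdm12 lie far to the left of the rest.

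Isl1 (mm9, chr13:117088478-117099896, minus strand) and Pou4f1 (chr14:104862737-104867216, minus strand), the pan-sensory factors, were the steadiest of the 10 genes. Isl1 had 154, 133, 146 and 183 CPM in female replicates 1 to 4 and 156, 158, 152 and 158 CPM in male replicates 1 to 4. The male libraries lay within the range of the female libraries. The means were 154 ± 21.0 CPM in females and 156 ± 2.76 CPM in males (SD, n = 4 each), and the log2 fold change, female over male, was -0.04 ± 0.11 (SE; 95% interval -0.29 to 0.21; adjusted p = 0.944 by the edgeR quasi-likelihood test).

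Pou4f1 had 211, 242, 199 and 259 CPM in the female libraries and 265, 223, 241 and 239 CPM in the male libraries. The highest library was male replicate 1 and the lowest female replicate 3, and the sexes overlapped. The means were 228 ± 27.6 CPM in females and 242 ± 17.1 CPM in males (SD, n = 4 each), with a log2 fold change of -0.11 ± 0.12 (SE; 95% interval -0.37 to 0.14; edgeR adjusted p = 0.832). The ratio of Pou4f1 to Isl1 per length stayed between 1.22 and 1.62 over the 8 libraries. Both genes had lower dispersion between libraries of a sex than most of the 12518 genes tested: 9.75% of genes lay below Isl1 and 13.2% below Pou4f1.

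Prdm12 (chr2:31495557-31511315, plus strand), a zinc finger protein of the PR domain family whose loss in humans abolishes the sense of pain, varied most. It had 394, 260.5, 50 and 43.1 CPM in female replicates 1 to 4, and 334, 146, 200 and 397 CPM in male replicates 1 to 4. Female replicates 3 and 4 were lower than every other library, female replicate 1 and male replicate 4 were nearly level at the top, and the sexes overlapped. The highest library was 9.20 times the lowest, 9.13 times within females and 2.72 times within males. These values rest on 240 to 2864 reads, far above the floor of 3 reads. The square root of the edgeR dispersion, which is the coefficient of variation between libraries beyond counting error, was 0.60 for Prdm12 against a median of 0.18 over all genes tested, and only 14 of 12518 genes had a larger value.

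The female mean of Prdm12 was 187 ± 171 CPM and the male mean 269 ± 116 CPM (SD, n = 4 each). Its log2 fold change of -0.55 ± 0.63 (SE) had a 95% interval from -1.94 to 0.84, so the data allow a difference of over 2-fold toward males (edgeR adjusted p = 0.845). Without female replicate 4 it was -0.22 (adjusted p = 0.904), without female replicate 3 it was -0.24 (adjusted p = 0.940), and without female replicate 1 it was -1.20 (adjusted p = 0.552). A smaller share of Prdm12-positive neurons in a library and less Prdm12 RNA per neuron cannot be told apart in bulk RNA, here or for the other genes.

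Runx1 (chr16:92601712-92826311, minus strand), a runt-domain factor, was also lowest in female replicates 3 and 4. It had 112, 93.4, 53.7 and 33.5 CPM in the female libraries and 105, 88.4, 74.5 and 88.2 CPM in the male libraries. The spread was 3.35-fold within females and 1.41-fold within males, and the means were 73.2 ± 36.0 CPM and 89.1 ± 12.6 CPM (SD, n = 4 each). The log2 fold change was -0.30 ± 0.31 (SE; 95% interval -0.99 to 0.39; edgeR adjusted p = 0.832), and it ranged from -0.58 (adjusted p = 0.557) without female replicate 1 to -0.06 (adjusted p = 0.934) without female replicate 4.

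The low values of Prdm12 and Runx1 did not extend to Isl1 and Pou4f1, whose log2(CPM + 1) lay -0.27 to 0.23 from the median in the same libraries. Per length, the ratio of Prdm12 to Isl1 was 0.350 in female replicate 3 and 0.241 in female replicate 4, against 0.948 to 2.61 in the other 6 libraries. The ratio of Runx1 to Isl1 was 0.119 and 0.0594 in these libraries, against 0.159 to 0.236 in the others. The exons of Runx1 total 7798 bases, longer than 87.7% of the genes tested, whereas those of Prdm12 total 2471 bases, longer than 25.5%, with a GC content of 57.7%, higher than 89.5%. The part of exon length, of GC content and of cell composition in these values was not tested. An antisense gene, Gm13425, overlaps Prdm12 in the annotation and is not among the counted symbols, and whether the counting used strand is not given in the sources used here, so reads of the antisense RNA cannot be told from those of Prdm12.

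**Figure D2:**
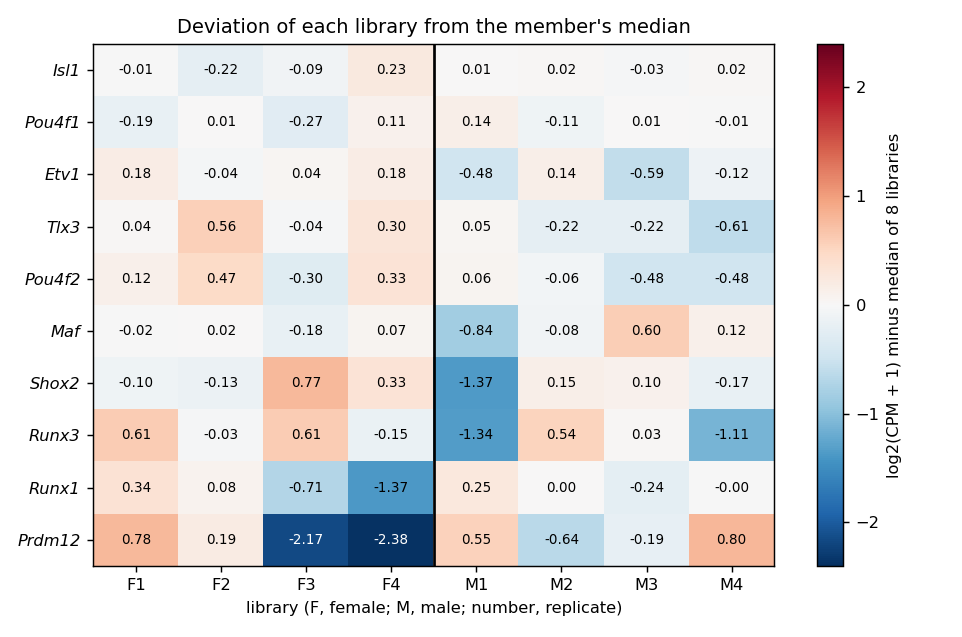
Deviation of each library from the median of 8 libraries, as the difference in log2(CPM + 1), for each gene (rows) and library (columns; F, female; M, male), with red above and blue below the median. Prdm12 lies at -2.17 and -2.38 in female replicates 3 and 4, Runx1 at -1.37 in female replicate 4, Shox2 and Runx3 at -1.37 and -1.34 in male replicate 1, and Isl1 between -0.22 and 0.23 everywhere.

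Tlx3 (chr11:33100752-33103588, minus strand) had 7.29, 10.9, 6.87 and 8.93 CPM in the female libraries and 7.37, 5.94, 5.94 and 4.29 CPM in the male libraries. Male replicate 1 lay above female replicates 1 and 3, so the sexes overlapped. The means were 8.51 ± 1.85 and 5.89 ± 1.26 CPM (SD, n = 4 each), from 29 to 63 reads. The log2 fold change was 0.51 ± 0.23 (SE) with a 95% interval from -0.01 to 1.02, and the unadjusted p of 0.0524 was the smallest of the 10 genes (adjusted p = 0.699). Its exons have a GC content of 67.3%, higher than 99.8% of the genes tested, and the part in this difference of the GC trend, which separated the sexes, was not tested.

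Etv1 (chr12:39505967-39594802, plus strand) had 65.6, 56.4, 59.6 and 65.7 CPM in the female libraries and 41.2, 63.9, 38.1 and 53.2 CPM in the male libraries. The female libraries lay close together, and male replicate 2 fell among them whereas the other 3 male libraries lay below. The means were 61.8 ± 4.60 and 49.1 ± 11.8 CPM (SD, n = 4 each), with a log2 fold change of 0.31 ± 0.16 (SE; 95% interval -0.05 to 0.68; edgeR adjusted p = 0.731).

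Pou4f2 (chr8:80956908-80960551, minus strand) had 7.01, 9.20, 5.00 and 8.25 CPM in the female libraries and 6.69, 6.09, 4.29 and 4.29 CPM in the male libraries. Female replicate 3 lay below male replicates 1 and 2, and the log2 fold change was 0.44 ± 0.25 (SE; 95% interval -0.11 to 0.99; edgeR adjusted p = 0.740). Per length, Pou4f1 stood 29.9 to 63.9 times above Pou4f2.

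Runx3 (chr4:134676567-134733905, plus strand), the runt-domain factor of proprioceptors, had 8.11, 4.86, 8.12 and 4.38 CPM in the female libraries and 1.36, 7.72, 5.12 and 1.77 CPM in the male libraries. Male replicates 1 and 4 were the lowest, with 10 and 12 reads, and male replicates 2 and 3 lay within the female range. The means were 6.37 ± 2.03 and 4.0 ± 3.0 CPM (SD, n = 4 each), and the log2 fold change of 0.66 ± 0.49 (SE) had a 95% interval from -0.41 to 1.74 (edgeR adjusted p = 0.797). Its dispersion was the largest of the 10 after that of Prdm12, with 120 of the tested genes above it. The ratio of Runx1 to Runx3 per length was 4.24 to 12.3 in females and 7.34 to 49.5 in males.

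Shox2 (chr3:66775649-66785693, minus strand) had 5.36, 5.21, 10.6 and 7.58 CPM in the female libraries and 1.64, 6.54, 6.27 and 5.03 CPM in the male libraries. Male replicate 1 was the lowest, as for Runx3, and female replicate 3 the highest. Its log2 fold change was 0.54 ± 0.39 (SE; 95% interval -0.32 to 1.40; edgeR adjusted p = 0.793), and it fell to 0.25 without male replicate 1. Its 5′ end overlaps Rsrc1 on the other strand, and without strand their reads cannot be told apart there, so its level is uncertain.

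Maf (chr8:118206842-118231694, minus strand), a basic leucine zipper factor that is also made by macrophages, had 9.49, 9.72, 8.33 and 10.1 CPM in the female libraries. The male libraries had 4.91, 9.06, 15.0 and 10.5 CPM and surrounded the female range on both sides, with male replicate 1 lowest and male replicate 3 highest. For Maf, the log2 fold change was -0.08 ± 0.29 (SE; 95% interval -0.71 to 0.55; edgeR adjusted p = 0.953), and it was 0.19 without male replicate 3.

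**Figure D3:**
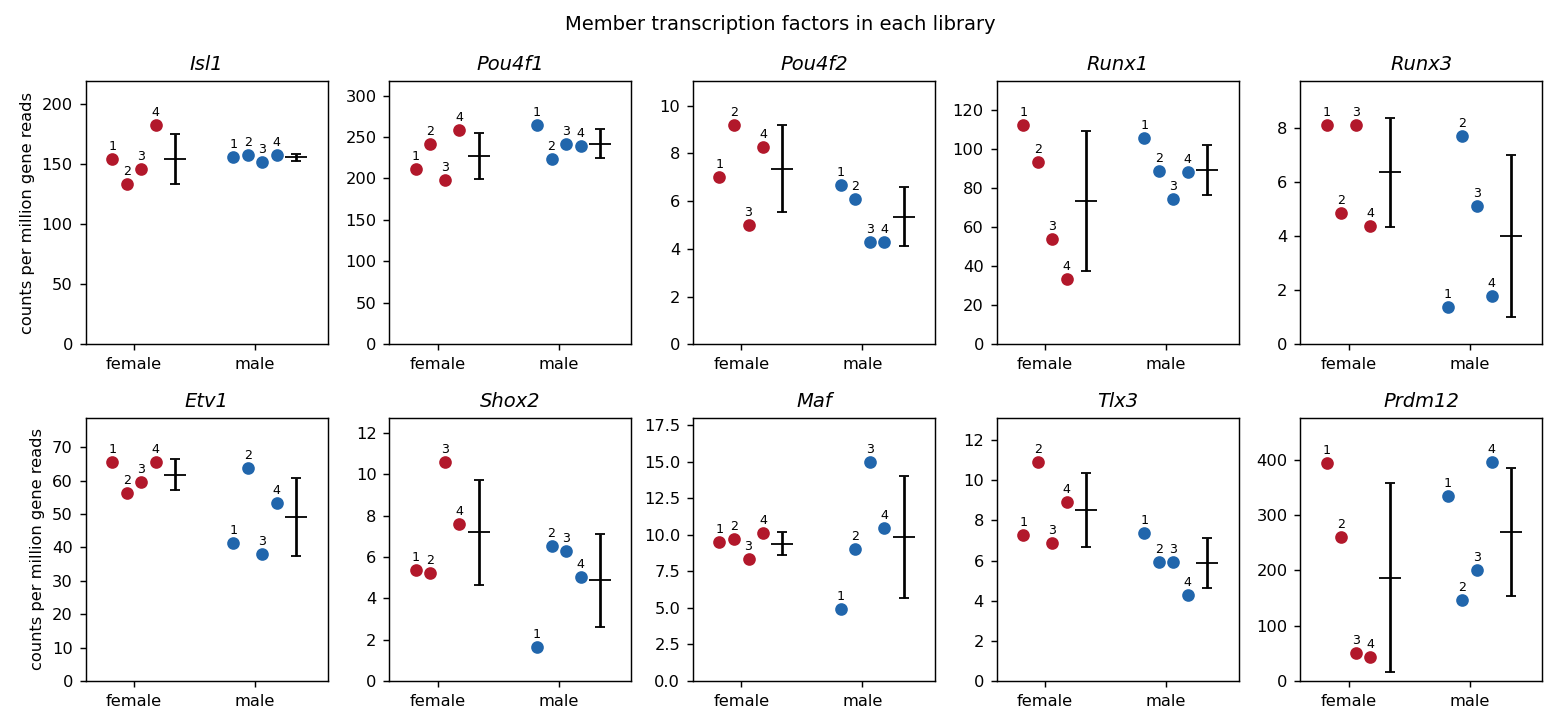
Counts per 1e6 gene reads of each gene in 4 female (red) and 4 male (blue) libraries, numbered by replicate, with the mean and SD of each sex as a black bar; each panel has its own axis from 0. The sexes overlap in all 10 panels, Isl1 is nearly flat, and Prdm12 runs from 43.1 to 397 CPM.

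Between the sexes, all 10 genes passed the expression filter and none passed an adjusted p of 0.05 in the edgeR test over 12518 genes, in which 11 genes, 0.0879%, did so. None had an unadjusted p under 0.05, against 7.11% of all genes tested, and DESeq2 gave 0 such genes as well. None had sexes that did not overlap in CPM, against 5.52% of all genes tested (3.0% with females higher and 2.52% with males higher). The log2 fold change was above 0 in 5 genes and below 0 in 5, with a median of 0.14, and the median over all genes tested was 0.00. For 6 genes (Isl1, Pou4f1, Pou4f2, Runx1, Etv1 and Maf) the 95% interval lay within a 2-fold difference in either direction. For Runx3, Shox2, Tlx3 and Prdm12 it reached beyond 2-fold, so a difference of that size is not excluded by these data.

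**Figure D4:**
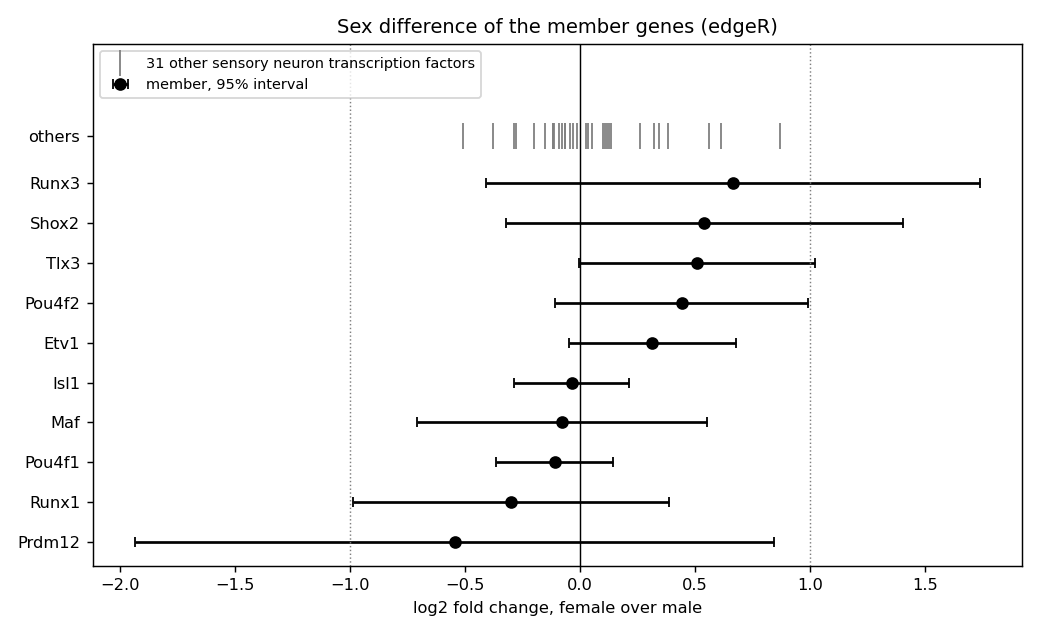
Log2 fold change, female over male, of the 10 genes by edgeR (points) with 95% intervals (bars), and of 31 other sensory neuron transcription factors (grey ticks); dotted lines mark 2-fold. All 10 intervals include 0, the narrowest belong to Isl1 and Pou4f1, and that of Prdm12 runs from -1.94 to 0.84.

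Other transcription factors of sensory neurons were counted from a list of 40, of which 31 passed the filter. Only Cux1, a homeobox factor, had an unadjusted p under 0.05, with 48.4 ± 1.62 CPM in females and 38.2 ± 3.46 CPM in males (SD, n = 4 each; log2 fold change 0.32; edgeR adjusted p = 0.637). Without male replicate 3, Cux1 no longer had an unadjusted p under 0.05. The share of all tested genes at this p and higher in females was 4.44%. The median log2 fold change of the 31 genes was -0.01. The 3 with the highest counts were Isl2, the LIM-homeodomain relative of Isl1, with 478 ± 49.1 CPM in females and 462 ± 35.7 CPM in males, Tshz2, with 298 ± 36.1 and 307 ± 31.4 CPM, and Klf7, a zinc finger factor of neuronal survival, with 282 ± 48.2 and 280.4 ± 27.5 CPM (SD, n = 4 each). For Isl2 the log2 fold change was 0.03 ± 0.11 (SE), close to that of Isl1. Neurog1 and Neurog2, the proneural factors that start the lineage in the embryo, had at most 3 reads and 1 read in any library, and Mafa, of embryonic touch neurons, had a single read in female replicate 4.

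Cofactors of the 10 genes were counted from a list of 15, all of which passed the filter. Cbfb, the common partner subunit of Runx proteins, had 117, 117, 132 and 95.2 CPM in the female libraries and 125, 157, 149 and 161 CPM in the male libraries. Female replicate 4 was the lowest and the sexes overlapped, with a log2 fold change of -0.37 ± 0.13 (SE). Ldb2, which bridges LIM-homeodomain proteins such as Isl1, had a log2 fold change of -0.34, and Tle3, a corepressor bound by Runx proteins, had -0.37. These 3 of 15 had an unadjusted p under 0.05 with a log2 fold change below 0, and none of the 15 passed the adjustment, against 2.67% of all tested genes that were higher in males at this p. Ssbp2, a partner of the Ldb proteins and after Ldb2 and Cbfb the most abundant, had 88.5 to 112 CPM and a log2 fold change of -0.07, which did not pass.

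Genes of the neuron types that the factors help to define were then counted, as a description of the mixture in each library. Of 12 genes of the Runx1 programme and of non-peptidergic nociceptors, none had an unadjusted p under 0.05, against 7.11% of all genes tested. A log2 fold change above 0 was found in 2 of the 12, against 50.7% of all genes tested, and the median was -0.23, against 0.00 over all genes. Ret, the GDNF receptor subunit, had 401 CPM in female replicate 4 against 866 to 1099 CPM in the other 7 libraries, so the library lowest in Runx1 was also lowest in Ret. Female replicate 3, the next lowest in Runx1, had 905 CPM of Ret and did not share this low level. Mrgprd, a receptor of skin nociceptors, had 559 CPM in female replicate 4, within the range of 519 to 724 CPM of the others. P2rx3, an ATP receptor of the same neurons, had 502 ± 115 CPM in females and 622 ± 57.3 CPM in males (SD, n = 4 each; edgeR adjusted p = 0.714).

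Of 8 peptidergic nociceptor genes, 4 had an unadjusted p under 0.05, all with a log2 fold change below 0, against 2.67% of all genes tested. These were the neuropeptide genes Calca (log2 fold change -0.35), Calcb (-0.30), Tac1 (-0.51) and Adcyap1 (-0.82), with an edgeR adjusted p of 0.413 for Adcyap1 and more for the others. Male replicate 1 was the highest library for all 4, and its sum over the 8 genes was 8237 CPM, against 4828 to 7048 CPM in the others. Of 5 genes of C-fibre touch neurons, which carry gentle touch, none had an unadjusted p under 0.05, against 7.11% of all genes tested. The 3 most abundant were Th, Fam19a4 and Cacna1h.

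Genes of large-fibre neurons mostly had log2 fold changes above 0. Of 7 touch receptor genes, 6 passed the filter. Nefh, the heavy neurofilament of thick axons, had a log2 fold change of 1.13 (edgeR adjusted p = 0.600) with overlapping sexes, and Necab2, a calcium-binding protein, had 0.84 (edgeR adjusted p = 0.637). These 2 of 6 had an unadjusted p under 0.05 in the female direction, against 4.44% of all genes tested. Ntrk2, the BDNF receptor of touch neurons, had a log2 fold change of 0.33 (edgeR adjusted p = 0.699). Of 7 proprioceptor genes, Ntrk3, the NT-3 receptor, was the 1 with an unadjusted p under 0.05, against the same 4.44%, and had a log2 fold change of 0.56 (edgeR adjusted p = 0.660). The other 6 also had a log2 fold change above 0, as did 50.7% of all genes tested. The median over the 7 was 0.56.

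Pvalb, the calcium buffer of proprioceptors, had 73.7, 46.0, 104 and 95.3 CPM in the female libraries and 11.9, 84.7, 50 and 38.3 CPM in the male libraries. Male replicate 1 was thus the lowest for Pvalb, and it was also the lowest for Spp1 (8.60 CPM), Ntrk3 (30.2 CPM), Runx3, Shox2 and Maf. The summed level of the 7 proprioceptor genes was 73.5 CPM in male replicate 1 and 161 to 348 CPM elsewhere. Male replicate 4, which had little Runx3, was the next lowest with 161 CPM. Female replicate 4 had the largest sum, 348 CPM, beside a Runx3 of only 4.38 CPM, so the sum and Runx3 did not always run in parallel.

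Markers of other cells in the ganglion were counted as well. The 12 markers of satellite glia and Schwann cells summed to 11617 to 14931 CPM in females and 5437 to 11213 CPM in males, with no overlap and with male replicate 1 lowest. Of these, 11 had a log2 fold change above 0 and 4, among them Sox10, Mbp and Apoe, an unadjusted p under 0.05 in the female direction, against 4.44% of all genes tested. Apoe alone, with 8054 to 10873 CPM in females and 3068 to 7796 CPM in males, made up most of each sum. Whether the other glial markers separate the sexes without Apoe was not tested. The 9 fibroblast markers summed to 143 to 195 CPM in females and 55.7 to 116 CPM in males, and 5 of the 7 that passed the filter (Col1a2, Dcn, Lum, Bgn and Mxra8) had such a p, against the same 4.44%. The 8 macrophage markers summed to 6.19 to 10.9 CPM in females and 1.77 to 6.77 CPM in males. Of the 2 that passed the filter, 1, Cd74, had an unadjusted p under 0.05 in the female direction, against the same 4.44%. The other, C1qb, had a log2 fold change of -0.14. Mean levels in females and males were 5.00 and 1.63 CPM for Cd74, and 1.94 and 2.13 CPM for C1qb. None of the 8 macrophage markers was at 0 in all libraries, and Ptprc was at 0 in 7. The 8 endothelial and blood markers summed to 2.87 to 19.4 CPM, with Hba-a1 and Hbb-b1 at 0 in all libraries. Reads that align more than once were not counted, and whether globin reads were lost this way was not tested. These zeros therefore do not show that blood RNA was absent. Alas2, a gene of red blood cells on the same list, had 1 to 22 reads per library. No marker of these lists passed the adjustment. Macrophages also make Maf and Runx1. The part of these cells in the levels of the 10 genes was not tested.

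Markers of neurons were abundant throughout. The 12 pan-neuronal markers summed to 24420 to 34804 CPM, and female replicate 4 had the largest sum. None of the 12 had an unadjusted p under 0.05, against 7.11% of all genes tested. The labelled cell type was therefore present by its defining markers in all 8 libraries.

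**Figure D5:**
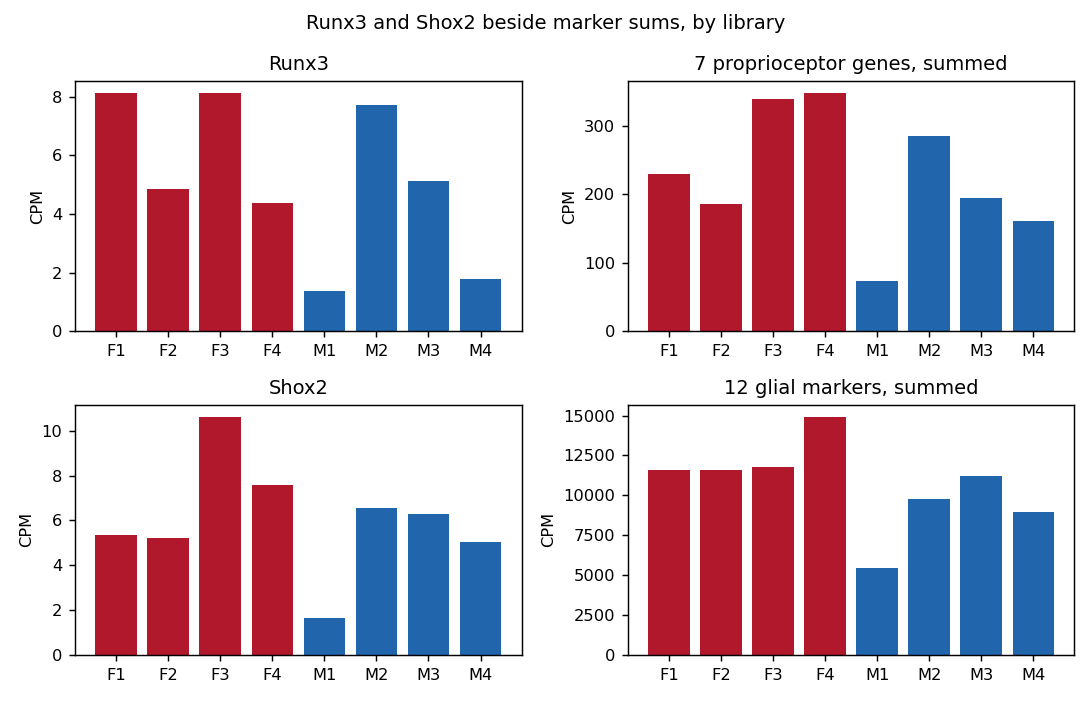
Counts per 1e6 gene reads of Runx3 and Shox2, and the summed CPM of 7 proprioceptor genes and of 12 glial markers, in each female (F, red) and male (M, blue) library, all axes from 0. Male replicate 1 is the lowest bar in all 4 panels, with 1.36 CPM of Runx3, 1.64 of Shox2, 73.5 of the proprioceptor genes and 5437 of the glial markers.

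To see which genes followed the pattern of a member over the 8 libraries, profiles of log2(CPM + 1) were standardised and compared by their root mean square difference, among 9073 genes with a mean of at least 10 CPM, for the 5 members at or above that level. The measure ignores the size of the variation. For Runx1 the nearest were Cep170 (difference 0.100), which has 9039 exon bases, and Map3k2 (0.137), with 10791, so both are long genes like Runx1. For Prdm12 they were Fam32a (0.213), which varied only from 110 to 125 CPM, and Mdm4 (0.252), for Isl1 Apeh (0.167) and Sgta (0.189), for Pou4f1 Agpat4 (0.216) and Bok (0.220), and for Etv1 Scarb1 (0.314) and Lzic (0.351). The median difference over all candidates was 1.31 to 1.35. No other member gene was among the nearest, and likeness over 8 libraries that share depth and handling is a description only.

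Runx1 and Runx3 each start from a distal and a proximal promoter, and the distal ones are shown because they carry the same short element. In the promoter sequences of RefSeq on build GRCm38.p6, which run from 250 bases before to 50 bases after the start, 9 of the 10 genes were found, with 12 promoters. The letters TGTGGT, the core that Runx proteins bind, were searched on both strands, where the other strand reads ACCACA. They occurred in 3 of 12 promoters, the distal ones of Runx1 and Runx3 and the first of Etv1, against 16.8% of all 32851 promoters. The distal promoters of Runx1 and Runx3 held 2 copies each, which 1.81% of all promoters did, and the proximal promoters held none. In both, the copies were spaced by the same 2 bases. They are printed in the direction of the gene with ACCACA in capitals, Runx1 from chr16:92826025-92826324 (minus strand) and Runx3 from chr4:135120395-135120694 (plus strand).
Runx1 distal: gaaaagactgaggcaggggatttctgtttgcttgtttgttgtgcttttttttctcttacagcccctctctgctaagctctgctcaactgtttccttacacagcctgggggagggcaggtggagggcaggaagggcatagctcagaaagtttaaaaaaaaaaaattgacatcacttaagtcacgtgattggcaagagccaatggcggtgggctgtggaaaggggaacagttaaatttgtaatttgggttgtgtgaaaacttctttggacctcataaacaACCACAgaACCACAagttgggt
Runx3 distal: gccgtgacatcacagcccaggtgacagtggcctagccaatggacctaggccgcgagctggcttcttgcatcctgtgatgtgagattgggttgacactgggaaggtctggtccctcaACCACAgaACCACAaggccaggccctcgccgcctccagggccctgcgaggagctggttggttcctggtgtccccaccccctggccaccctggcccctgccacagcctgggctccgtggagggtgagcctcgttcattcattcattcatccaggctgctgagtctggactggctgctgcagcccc
In Runx1 the copies lie at bases 29 to 34 and 37 to 42 after the start, and in Runx3 at bases -134 to -129 and -126 to -121. The Runx1 window has a GC content of 45.0% and the Runx3 window 63.7%, against a median of 52.7%. A match of letters is a description, and the read counts do not tell which promoter the RNA came from.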

How the data were processed

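RNA of sorted WGA-Alexa Fluor 488-labelled DRG neurons was measured in 4 female and 4 male libraries, grouped by their labels. The authors sequenced single reads of 50 bases, aligned them with TopHat2 to build mm9 of the mouse genome and assigned them to genes with HTSeq-count. The values deposited were raw counts, without normalization. Versions, annotation release and strand option are not given in the sources used here. Reads carry no molecular identifiers, so floors cover counting error only. Of uniquely aligned reads, 57.8% to 60.5% were assigned to no feature and 0.145% to 0.169% were ambiguous, and these summary lines were left out of library sizes and tests. The strand option is not known, so reads assigned to no feature need not lie outside genes. Reads that align more than once are in the summary lines only.

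CPM were computed from counts and gene reads, and RPKM from the union of exons in GENCODE M1 (NCBIM37, the same assembly as mm9), which held 21627 of the 22609 symbols. Coordinates are 1-based. Counts were tested with edgeR 4.0.16 in R 4.3.3 (quasi-likelihood test, TMM factors, default expression filter, sex as the only term, Benjamini-Hochberg adjustment over 12518 genes), after a check on simulated data. The study used DESeq on the same groups. The alternatives were DESeq2 1.42.0, its size factors in edgeR, library size alone, no expression filter, the replicate number as a block, and leaving out each library in turn. Tables and figures were made in Python 3.11.15 (pandas 2.3.3, matplotlib 3.10.9).

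The members and lists were chosen with earlier results of these data known. All 10 members are given in every library, and from each other list the genes with an unadjusted p under 0.05 and the 3 of highest mean CPM are candidates for naming, as are the 2 genes nearest in profile to each member. Genes outside this rule (Neurog1, Neurog2 and Mafa, Ptprc, Hba-a1, Hbb-b1 and Alas2, and the relatives of the members and other factors in the closing section) were named after their values were seen. No pair of libraries of a sex was a duplicate (chi-square per degree of freedom at least 2.90). The labels give no batch or date, so nothing could be recomputed within batches. Some genes of the lists are counted but not reported here by name.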

Additional observations from a re-analysis of the deposited data

How the results depend on the processing

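None of the 10 genes passed an adjusted p of 0.05 under any of the 13 alternatives. At an unadjusted p under 0.05 there were 0, and 1 (Tlx3) with library size alone; leaving out a library gave 0 to 2 (Tlx3 without female replicate 1 and without male replicate 1, Pou4f2 and Tlx3 without female replicate 3, Etv1 and Runx3 without male replicate 2). Over all genes 11 were called, 44 with DESeq2, 6 with the replicate block, 7 to 84 leaving out a library (7 without male replicate 4 and 84 without female replicate 1). Of the other sensory neuron transcription factors 1 had an unadjusted p under 0.05, and 1 to 3 leaving out a library (3 without female replicate 4: Cux1, Cux2 and Etv5; without male replicate 3 the gene was Meis2 in place of Cux1). Of 130 log2 fold changes of single members, 127 kept their direction and 3, all near 0, turned: Isl1 to 0.022 without female replicate 2, Maf to 0.0063 with the replicate block and to 0.19 without male replicate 3 (leaving out a library gave -0.12 to 0.022 for Isl1 and -0.30 to 0.19 for Maf). The cause was not tested. The largest shifts were those of Prdm12 (-1.20 without female replicate 1 to -0.22 without female replicate 4) and Runx3 (0.38 without male replicate 1 to 1.22 without male replicate 2). With the replicate block Prdm12 had -1.0 and Runx1 -0.43.

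Libraries with the same number come from mice of different sex, and the correlation of their deviations was -0.11 to 0.14 over the 4 numbers, so the number was not treated as a pairing; the block changed no call of a member. With 10 to 91 reads per library for Runx3, Shox2, Maf, Tlx3 and Pou4f2, counting error adds to the spread between libraries, which was large for Prdm12, Runx3, Shox2 and Runx1.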

Other observations

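In the edgeR test over all 8 libraries, 7.11% of all genes tested had an unadjusted p under 0.05. None of the relatives of the 10 genes given here did, though Etv5 did without female replicate 3 and without female replicate 4. Runx2, the runt-domain factor of bone, had 5.06 ± 1.81 CPM in females and 7.11 ± 1.56 CPM in males (SD, n = 4 each; log2 fold change -0.51, edgeR adjusted p = 0.757). Etv5, an ETS factor related to Etv1, had 115 ± 29.3 and 149 ± 11.0 CPM (log2 fold change -0.38, edgeR adjusted p = 0.711), and Etv4 had 2.22 ± 0.365 and 1.74 ± 0.614 CPM (adjusted p = 0.825). Pou4f3, the POU factor of hair cells of the inner ear, had 23.2 ± 3.30 and 24.0 ± 6.94 CPM (edgeR adjusted p = 0.946).

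Other listed factors ranged from over 100 CPM to nearly 0. Ebf1, a helix-loop-helix factor, had 194 ± 30.6 CPM in females and 208 ± 13.9 CPM in males, and Myt1l, a repressor of non-neuronal genes, had 126 ± 18.9 and 135 ± 17.7 CPM (SD, n = 4 each). Onecut3, Rorb, Foxs1 and St18 had at most 1 read in any library.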
